A study of Mus musculus with 12 samples.

Results

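The 37 genes described here encode enzymes and carriers of the tricarboxylic acid (TCA) cycle and of the reactions that feed it and drain it. A gene was kept where its promoter, from 1500 bases before to 500 bases after the transcription start, held 3 or more cytosines listed in all 12 libraries of the series, and its methylation was the mean over those cytosines in each library. By this rule 30 of the 37 genes had a measured promoter, out of 13894 promoters in all. The rule uses which cytosines were listed and no methylation value.

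The libraries were reduced representation bisulfite sequencing (RRBS) libraries, in which a restriction digest selects CpG-rich fragments and bisulfite converts unmethylated cytosines. They came from a pair of immortalized mouse embryonic fibroblast (iMEF) lines. The experimental line was R26M2rtTA/+;TetOcre;Sdhcfl/fl, with exon 4 of both copies of Sdhc flanked by Cre recombination sites, and the control line was R26M2rtTA/+;TetOcre;Sdhcfl/wt, with 1 such copy and 1 wild type copy. Both lines carried the tet-inducible Cre and the reverse tetracycline trans-activator, and both received doxycycline at 1 µg/mL, so the control line went through the same induction with 1 floxed copy. The lines came from day 13 embryos and were both immortalized with SV40 virus. Each line was sampled before doxycycline (day 0) and on its days 5, 9, 12, 16 and 20, with 1 library per line and day. Replication is therefore over time points of 1 culture line per genotype, every SD below is the spread between those time points, and an effect of genotype cannot be told apart from a difference between these 2 lines.

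Sdhc encodes a membrane subunit of succinate dehydrogenase, which oxidizes succinate to fumarate in the TCA cycle. Cells that lose it accumulate succinate. Anaplerosis is the supply of carbon to the cycle, as from pyruvate or glutamine. Cells without the enzyme are thought to rely more on the route from pyruvate to oxaloacetate for their aspartate. In these iMEF lines, however, the study saw no statistical difference in apoptosis between the genotypes after knockdown of pyruvate carboxylase, the enzyme of that route. Succinate competes with 2-oxoglutarate at the TET enzymes, which oxidize methylated cytosine. Promoters rich in CpG are usually unmethylated in cells of any type, whereas the bodies of expressed genes are usually methylated. The comparison made here asks whether the promoters of the enzymes around the interrupted step differed in methylation between the lines.

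Methylation levels are given as beta values, the share of reads called methylated at a cytosine, from 0 to 1. The number of reads behind each value is unknown, so no interval is given for any single value. The libraries listed 932307 to 1716381 cytosines, the fewest in control day 12, and 606488 autosomal cytosines were listed in all 12. In control day 12 the median over all promoters was 0.00415, against 0.0153 to 0.0238 in the other 11 libraries. Control day 12 also had 19 member promoter cytosines with a beta value over 0.5, against 6 to 10 in the others. Calls and differences that turn on control day 12 are given with and without it. Promoter methylation is a limited check of cell type. Among mesenchymal markers the promoters of Fn1 (0 to 0.00578) and Vim (0 to 0.0113) were near 0 in all libraries, the promoter of Col1a2 lay at 0.807 to 0.957, and those of the germline genes Dazl, Mael and Tex101 were at 0.769 or more. Pdgfrb lay at 0 to 0.054 and Twist1 at 0.0989 to 0.14. Of 10 mesenchymal markers 6 were measured and none was called. Of 6 epithelial markers 3 were measured and none was called. Esrp1 lay at 0.0534 to 0.132, Cdh1 at 0.235 to 0.417 and Krt18 at 0.269 to 0.544, so the mesenchymal and epithelial markers overlapped in level. Prrx1, a mesenchymal transcription factor, had means of 0.185 in the experimental and 0.627 in the control line (adjusted p = 0.126 by limma), and the part of such a difference between the lines in the results below was not tested.

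The promoter sequences of the following genes show the CpG content around these starts. They are the 300 bases from 250 before to 50 after the start, from RefSeq on GRCm38.p6, 5′ to 3′ on the strand of the gene, with each CpG in capitals. Slc25a1, the mitochondrial citrate carrier, is shown because it was the only member promoter whose difference between the lines passed the test. Glud1, glutamate dehydrogenase, has the most CpG among the members with a listed sequence, and Pck1, cytosolic phosphoenolpyruvate carboxykinase, the fewest.
Slc25a1 (chr16:17928170-17928469, minus strand): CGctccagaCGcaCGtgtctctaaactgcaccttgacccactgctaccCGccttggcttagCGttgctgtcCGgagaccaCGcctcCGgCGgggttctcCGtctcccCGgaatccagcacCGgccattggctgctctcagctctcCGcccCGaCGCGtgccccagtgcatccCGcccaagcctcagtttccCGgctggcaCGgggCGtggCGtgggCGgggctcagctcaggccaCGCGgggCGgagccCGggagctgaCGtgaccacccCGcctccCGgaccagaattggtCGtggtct
Glud1 (chr14:34310477-34310776, plus strand): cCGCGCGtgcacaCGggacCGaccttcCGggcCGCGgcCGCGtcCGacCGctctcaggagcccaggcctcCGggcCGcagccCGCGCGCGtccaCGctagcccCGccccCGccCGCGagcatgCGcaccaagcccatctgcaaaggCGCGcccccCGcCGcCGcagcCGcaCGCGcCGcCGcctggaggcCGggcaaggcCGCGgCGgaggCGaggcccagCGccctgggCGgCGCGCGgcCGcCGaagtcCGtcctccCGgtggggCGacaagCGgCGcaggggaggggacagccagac
Pck1 (chr2:173152823-173153122, plus strand): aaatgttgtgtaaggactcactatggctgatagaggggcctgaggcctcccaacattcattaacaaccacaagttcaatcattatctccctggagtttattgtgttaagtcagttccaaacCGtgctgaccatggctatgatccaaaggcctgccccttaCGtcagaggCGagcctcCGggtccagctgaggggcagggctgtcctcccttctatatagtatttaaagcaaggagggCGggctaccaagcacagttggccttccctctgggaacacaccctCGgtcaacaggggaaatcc

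The Slc25a1 sequence holds 30 CpG, that of Glud1 51 and that of Pck1 6. Within these 300 bases, 14, 21 and 1 cytosines respectively were listed in all 12 libraries. The table held a sequence for 25 of the 30 measured members, and none for Abat, Aldh2, Gls2, Idh3a and Me2. The 25 had a median of 19 CpG, against 21 over the 11356 tested promoters with a sequence and 7 over all 25748 listed. The letters CCGG, the cut site of the enzyme MspI commonly used for RRBS, read on either strand since they are their own reverse complement, were found in 24 of these 25 promoters (96%), in 86.2% of the tested promoters and in 53.5% of all listed.

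Most member promoters were unmethylated in both lines throughout. The median over the 30 promoters of the mean beta value was 0.0094, against 0.0231 over all promoters. In 25 of 30 (83.3%) the beta value was under 0.1 in every one of the 12 libraries, where 55.1% of all promoters met the same condition, and 19 of 30 were under 0.05 throughout. Without control day 12 the counts were 26 of 30 (86.7%) and 56.2% of all promoters. Of the 651 cytosines in these promoters, 322 were at 0 in all 12 libraries, 514 stayed under 0.1 and 7 had a mean over 0.5. The low values were centred on the start: from 250 bases before to 500 bases after it, the mean beta value of member cytosines was 0.00907 to 0.0111 in each 250-base bin, against 0.0555 to 0.0718 over all cytosines in the same bins. From 500 to 250 bases before the start it was 0.0498, against 0.0841 over all.

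**Figure D1:**
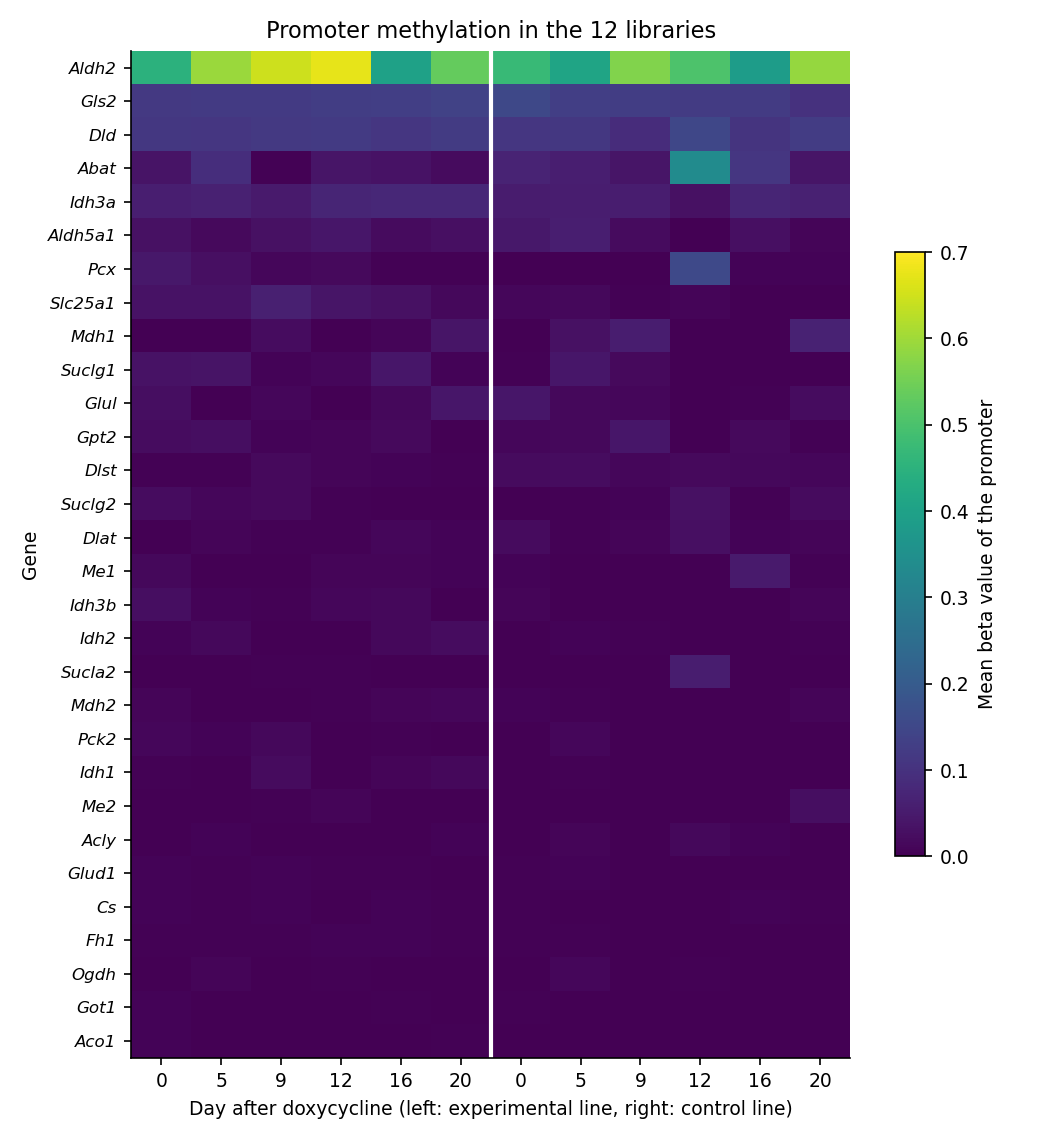
Colour gives the mean beta value (0 to 0.7) of each of the 30 measured member promoters (rows, ordered by mean) in each library (columns, by line and day). Aldh2 stands alone at 0.386 to 0.675, Gls2 and Dld lie near 0.12, and most rows are near 0 except for Abat and Pcx in control day 12.

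Among the members, 1 of 30 promoters was called different between the lines and it was higher in the experimental line. The test was limma on M-values (log2 of methylated over unmethylated share, each with an offset of 0.01), 5 experimental libraries of days 5 to 20 against 6 control libraries, with Benjamini-Hochberg adjustment over all promoters and a threshold of 0.05. Over all promoters 2.45% were called by this rule, 235 higher and 105 lower. At an unadjusted p under 0.05 there were 3 members, Slc25a1, Dlst and Fh1, where 18.0% of all promoters passed. Among promoters under 0.1 in all 12 libraries, 12% of the 25 members passed at this level, beside 12.8% of all 7661. Of these, 1 member (4%) was called, beside 0.796% of the 7661. The difference in M-value was above 0 for 20 of 30 members (66.7%) and for 66.4% of all promoters, with medians of 0.07 and 0.19. No promoter in the series was called for a different slope over days between the lines, and at an unadjusted p under 0.05 there were 2 members, Suclg2 and Gls2, where 5.33% of all promoters passed.

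**Figure D2:**
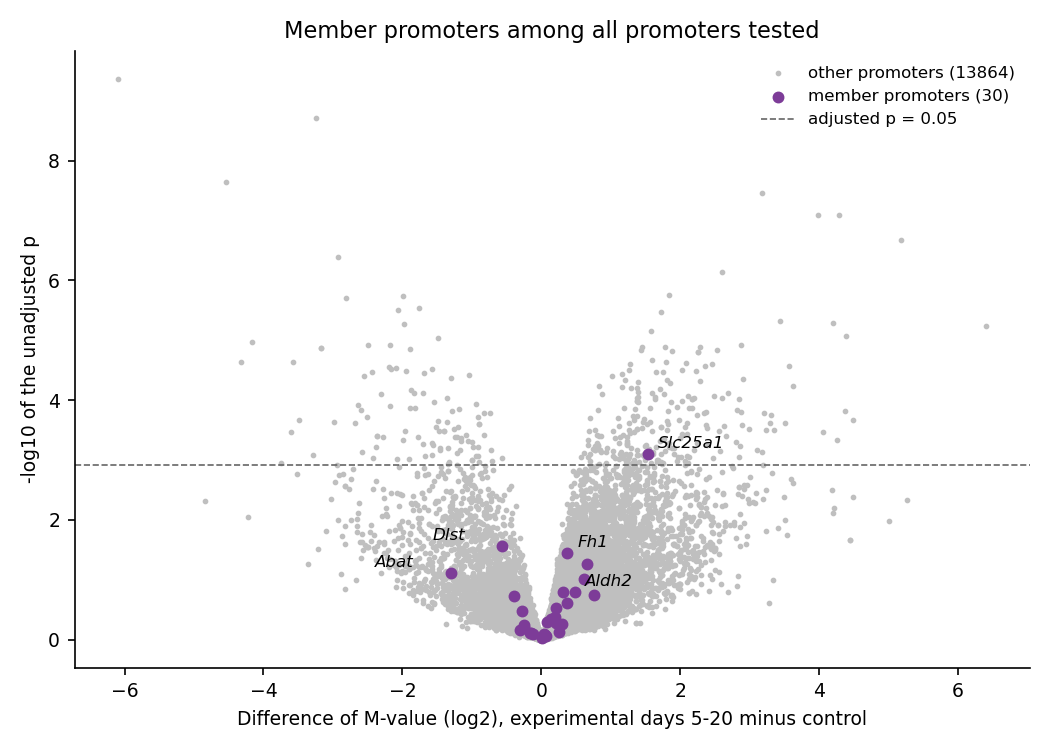
Each point is a promoter, with the difference of its M-value between the lines (log2) on the horizontal axis and −log10 of the unadjusted limma p on the vertical axis. The 30 member promoters (purple) lie mostly near the bottom centre, and Slc25a1 alone is above the dashed line that marks an adjusted p of 0.05.

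The citrate export genes were Slc25a1, which moves citrate from the mitochondrion to the cytosol, and Acly, ATP citrate lyase, which splits it to acetyl-CoA and oxaloacetate. The Slc25a1 promoter (chr16:17927720-17929719, mm10, 31 cytosines) had methylation levels of 0.0329, 0.061, 0.0406, 0.0314 and 0.0155 in the experimental line on days 5, 9, 12, 16 and 20. In the control line it had 0.0111, 0.0146, 0.00476, 0.00909, 0 and 0 on days 0 to 20. Every experimental library lay above every control library, a separation in this direction that 3.12% of all promoters showed; no member lay wholly below the control line, where 1.15% of all promoters did. The means were 0.0363 ± 0.0166 (SD, n = 5) and 0.00658 ± 0.006 (SD, n = 6). The difference in M-value was 1.53 with a standard error of 0.328 and an adjusted p of 0.0398 by limma. Over these 31 cytosines the experimental line was at 0.0332 on day 0 and the control line at 0.0111. The call was kept in 10 of 24 alternative fits, and in 4 of the 11 that left out 1 library, with adjusted p-values from 0.0298 to 0.0936 in the latter. The 10 include the fits that required 5 or 10 cytosines and that with the gene end as start. Those left the Slc25a1 values and the difference of 1.53 unchanged, so they could not test it. The call was not kept when the median over cytosines replaced the mean, where both lines were at 0 (adjusted p = 0.373 by limma). It was also not kept over the 60 cytosines listed in the 11 libraries other than control day 12, where the difference in M-value was 0.72 (adjusted p = 0.111 by limma). Over those 60 cytosines the means were 0.0261 ± 0.00402 in the experimental and 0.0127 ± 0.00563 in the control line (SD, n = 5 each). The order on day 0 was then the opposite, with 0.0171 in the experimental and 0.0182 in the control line, and the experimental values of days 5 to 20 were 0.0215, 0.0315, 0.0276, 0.0227 and 0.0271. Acly had values from 0 to 0.0139 over the 12 libraries, with overlap between the lines.

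The most methylated CpG of the Slc25a1 promoter lay about 60 bases upstream of the printed sequence. Its cytosine at chr16:17928530, 311 bases before the start, had methylation levels of 0.37, 0.241, 0.103, 0.454 and 0.214 in the experimental line on days 5 to 20 and 0.542 on day 0. In the control line this cytosine was at 0.18 on day 5 and at 0 in the other 5 libraries. The cytosine on the other strand, 310 bases before the start, had 0.25, 1, 0.273, 0.0625 and 0.111 in the experimental line on days 5 to 20. On day 0 it had 0.111 in the experimental and 0.2 in the control line, the opposite order, and it was at 0 in the other control libraries. Neither passed the test for single cytosines (adjusted p of 0.0708 and 0.25 by limma). Of the 31 cytosines, 17 stayed under 0.1 in all libraries.

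**Figure D3:**
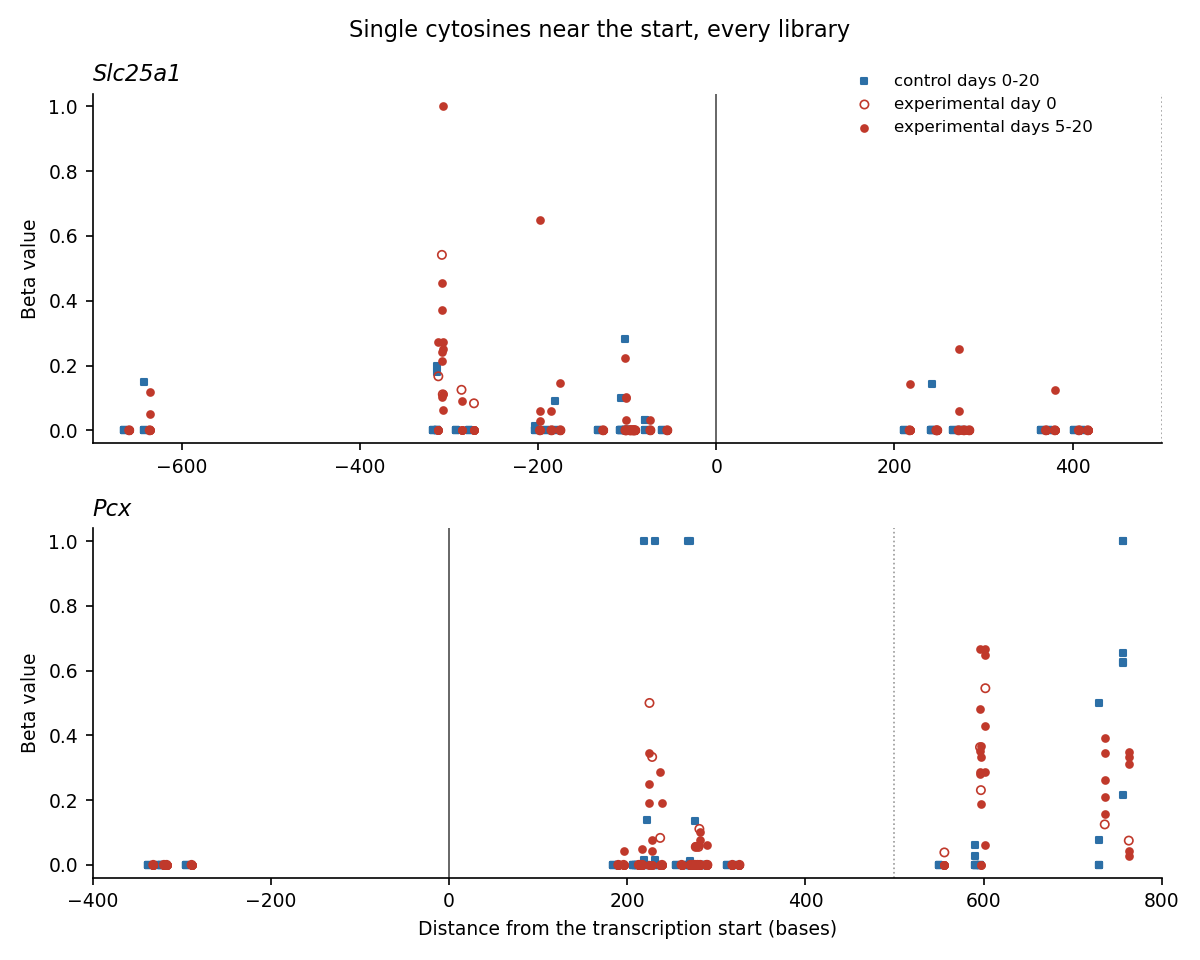
Beta value of each cytosine in each library against its distance from the transcription start in bases, for Slc25a1 (top) and Pcx (bottom), with experimental day 0 as open circles and the dotted line at the end of the promoter window. In Slc25a1 the experimental values rise above the control values mainly at 311 and 310 bases before the start, and in Pcx at 593 to 599 bases after it, while the 4 Pcx values of 1 inside the window are control day 12.

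The 14 measured cycle enzymes had promoters close to 0 in all libraries. Their median mean beta value was 0.00622, the highest mean was 0.0611 (Idh3a) and the lowest 0.000783 (Aco1, the cytosolic aconitase). None was called. Dlst, the succinyl transferase subunit of the 2-oxoglutarate dehydrogenase complex, had methylation levels of 0.00451, 0.0189, 0.01, 0.00712 and 0.00313 in the experimental line on days 5 to 20, after 0.00384 on day 0. In the control line it had 0.0212, 0.023, 0.0135, 0.0178, 0.0142 and 0.0112 on days 0 to 20. The lines overlapped only through experimental day 9, and the difference in M-value was −0.57 ± 0.222 (SE) with an adjusted p of 0.212 by limma. A single cytosine of Dlst 240 bases before the start had a mean of 0.013 in the experimental line and 0.208 in the control line (adjusted p = 0.218 by limma), and passed only without control day 12, where it is at 0 (adjusted p = 0.0263). The promoter and this cytosine were already lower in the experimental line on day 0, before doxycycline. The cytosine was then at 0 in the experimental and 0.357 in the control line.

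Fh1, fumarase, which acts on the product of succinate dehydrogenase, stayed under 0.01 in every library. Its values were 0.00321, 0.00362, 0.00557, 0.00798 and 0.0037 in the experimental line on days 5 to 20, after 0.0038 on day 0. The control line had 0.0034, 0.00473, 0, 0, 0.000645 and 0.000393. The adjusted p was 0.234 by limma, and 31 of 31 cytosines were under 0.1 in all libraries. Suclg2, the GTP-forming subunit of succinyl-CoA synthetase, had 0.0229 on experimental day 0 and then 0.0129, 0.0174, 0.00313, 0 and 0.000947 on days 5 to 20. The control line had 0, 0.00493, 0.00595, 0.0313, 0.00313 and 0.02 on days 0 to 20. The difference in slope between the lines was −0.16 in M-value per day with a standard error of 0.0468 and an adjusted p of 0.907 by limma.

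Idh3a, a subunit of the NAD-dependent isocitrate dehydrogenase, had 1 cytosine 478 bases before the start that lay between 0.432 and 1, while the mean of the other 13 was 0.0028. Over the 28 cytosines of the 11 libraries other than control day 12 its promoter was at 0.0266 to 0.0545. Over the 14 cytosines it had 0.065, 0.0506, 0.0714, 0.0786 and 0.0774 in the experimental line on days 5 to 20, after 0.0584 on day 0. The control line had 0.0526, 0.0568, 0.0556, 0.0309, 0.0714 and 0.0646, so the lines overlapped. Mdh1, cytosolic malate dehydrogenase, was at 0 in 6 of 12 libraries. Its other values were 0.0231, 0.00962 and 0.0385 on experimental days 9, 16 and 20, and 0.0321, 0.055 and 0.0673 on control days 5, 9 and 20, with no separation of the lines. In the other 9 cycle promoters (Cs, Aco1, Idh1, Idh2, Idh3b, Ogdh, Suclg1, Sucla2, Mdh2) no value in any library was above 0.0556, and the lowest adjusted p was 0.29 (Idh1, limma). The value of 0.0556 was Sucla2 in control day 12, and the highest without that library was 0.0428 (Suclg1).

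Of the pyruvate dehydrogenase subunits, Dlat (29 cytosines) ranged from 0.00264 to 0.0296 over the 12 libraries and Dld (9 cytosines) from 0.0901 to 0.149. Dld, the E3 subunit that pyruvate dehydrogenase shares with 2-oxoglutarate dehydrogenase, had 0.11, 0.117, 0.119, 0.112 and 0.12 in the experimental line on days 5 to 20, after 0.114 on day 0. The control line had 0.111, 0.115, 0.0901, 0.149, 0.105 and 0.125. Of these 9 cytosines, 1 that lay 1356 bases before the start was methylated at 0.811 or more in every library, and the mean of the other 8 was 0.01. The level depended on which cytosines were listed: over the 19 in the 11 libraries other than control day 12, Dld was at 0.19 to 0.241, with means of 0.22 and 0.214 in the experimental and control lines.

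The anaplerotic and cataplerotic genes with a measured promoter were Pcx, Pck2, Me1 and Me2, and none was called. Pcx encodes pyruvate carboxylase, the enzyme that makes oxaloacetate from pyruvate, and is one of the members the study looked at by name. Its promoter (chr19:4508972-4510971, mm10, 26 cytosines) had methylation levels of 0.0275, 0.0133, 0.0191, 0.00536 and 0.00516 in the experimental line on days 5 to 20, after 0.0438 on day 0. The control line had 0, 0, 0, 0.154, 0.00651 and 0.00572. The control value of day 12 came from 4 cytosines at a beta value of 1 there, 222, 234, 271 and 273 bases after the start. With that library the mean was 0.0141 ± 0.00949 (SD, n = 5) in the experimental and 0.0277 ± 0.0619 (SD, n = 6) in the control line, a difference in M-value of 0.25 with an adjusted p of 0.892 by limma. Without it the difference was 0.92 with an adjusted p of 0.156. Pck2 (mitochondrial phosphoenolpyruvate carboxykinase), Me1 and Me2 (malic enzymes) had no value above 0.0502.

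**Figure D4:**
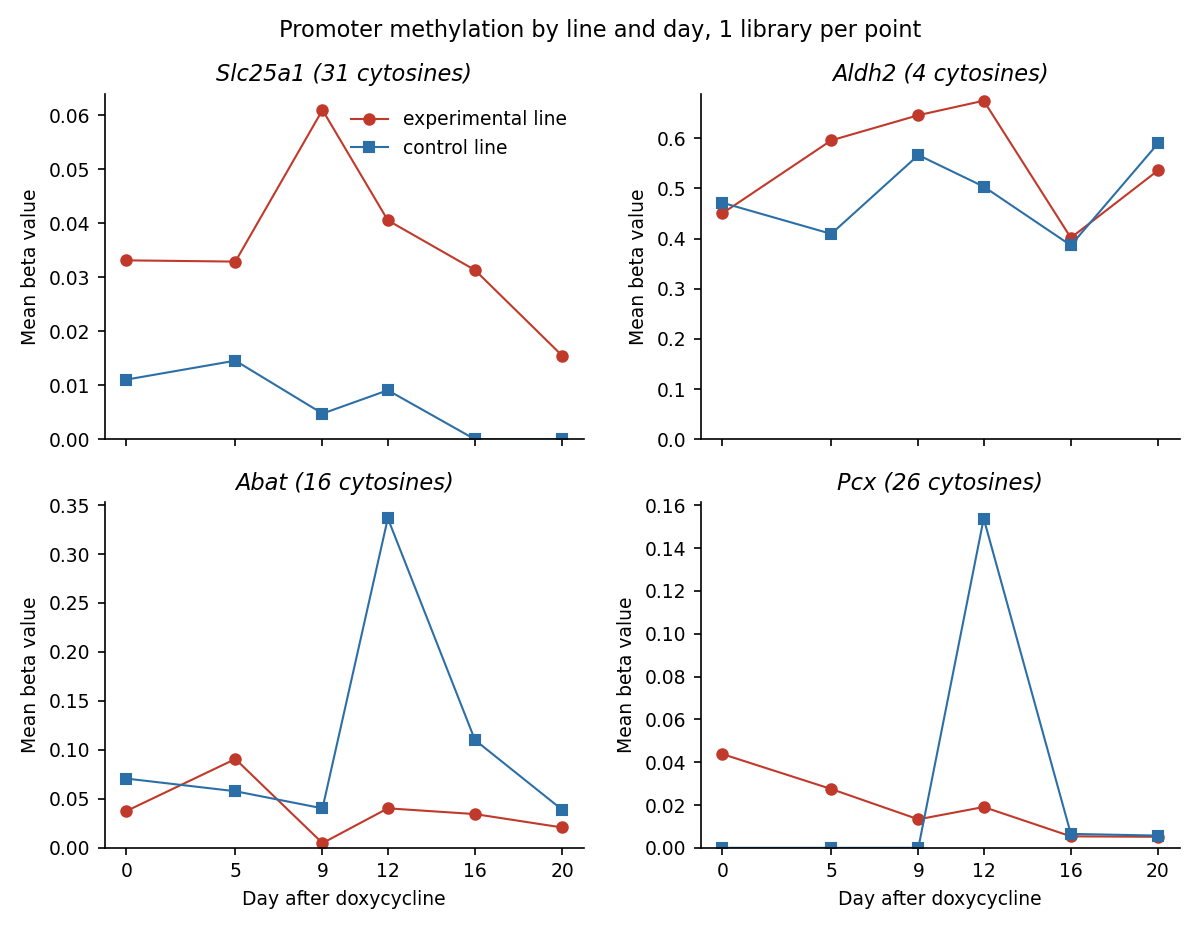
Mean promoter beta value (vertical axis, each panel with its own scale from 0) against day of doxycycline for Slc25a1, Aldh2, Abat and Pcx, 1 library per point, experimental line in red and control line in blue. Over the 31 cytosines listed in all 12 libraries Slc25a1 is higher in the experimental line at each day including day 0, but over the 60 listed without control day 12 day 0 is 0.0171 against 0.0182 in the control line. Aldh2 shows overlap, and control day 12 is at 0.336 in Abat and 0.154 in Pcx.

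The measured genes of glutamine, glutamate and aspartate metabolism were Glud1, Gls2, Glul, Got1 and Gpt2, and none was called. Gls2, the liver-type glutaminase, had the highest level of them, with 0.119, 0.118, 0.127, 0.129 and 0.138 in the experimental line on days 5 to 20, 0.116 on day 0, and 0.152, 0.13, 0.127, 0.121, 0.12 and 0.099 in the control line. The difference in slope was 0.04 in M-value per day with a standard error of 0.0152 and an adjusted p of 0.907 by limma. Of its 22 cytosines, 3 had a mean over 0.5, at 1037, 1030 and 867 bases before the start, and the mean of the other 19 was 0.00641. Over the 30 cytosines of the 11 libraries Gls2 was at 0.0726 to 0.112. Glud1, with the most cytosines of any member (80), did not exceed 0.00816 in any library. Glul (glutamine synthetase), Got1 (cytosolic aspartate aminotransferase) and Gpt2 (mitochondrial alanine aminotransferase) had no value above 0.0417.

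The aldehyde and GABA genes held the most methylated member promoter. Aldh2, mitochondrial aldehyde dehydrogenase and also looked at by name in the study, was measured over 4 cytosines 570 to 409 bases before the start (promoter chr5:121593325-121595324, mm10), with none nearer to it. Its levels were 0.596, 0.646, 0.675, 0.401 and 0.536 in the experimental line on days 5 to 20 and 0.45 on day 0. The control line had 0.471, 0.409, 0.566, 0.503, 0.386 and 0.589. The means were 0.571 ± 0.108 (SD, n = 5) and 0.488 ± 0.0818 (SD, n = 6), the lines overlapped, and the difference in M-value was 0.48 with an adjusted p of 0.469 by limma. The 4 cytosines differed in the order of the lines: the one 421 bases before the start had means of 0.666 and 0.353 in the experimental and control lines, and the one 570 bases before it 0.105 and 0.35, with adjusted p-values of 0.3 and 0.731 by limma.

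Abat, GABA transaminase, had methylation levels of 0.0907, 0.00481, 0.0403, 0.0345 and 0.0208 in the experimental line on days 5 to 20 and 0.0376 on day 0. The control line had 0.0707, 0.0578, 0.0403, 0.336, 0.11 and 0.039. Of its 16 cytosines, 5 between 156 and 170 bases after the start were at 0.938 in control day 12. The difference in M-value was −1.30 with an adjusted p of 0.341 by limma, and −0.83 with an adjusted p of 0.432 without control day 12. Over the 22 cytosines listed in the other 11 libraries it was −0.40 with an adjusted p of 0.679. Aldh5a1, succinate semialdehyde dehydrogenase, which yields succinate, ranged from 0 to 0.0586 over the 12 libraries. It had 0.018, 0.0319, 0.0426, 0.0217 and 0.0287 in the experimental line on days 5 to 20, after 0.032 on day 0. The control line had 0.0455, 0.0586, 0.0211, 0, 0.0282 and 0.00892.

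The 7 members without a measured promoter were Pck1 and Aldh4a1, with 1 cytosine each in all 12 libraries, and Me3, Got2, Gpt, Asns and Pdhb, with none. When cytosines had to be listed only in the 11 libraries other than control day 12, 34 members passed and 4 of these were new. Pck1 differed from the rest in level: over 3 cytosines it lay between 0.665 and 0.938 in all 11 libraries, with means of 0.803 ± 0.121 in the experimental and 0.767 ± 0.0579 in the control line (SD, n = 5 each). Pdhb, the E1 beta subunit of pyruvate dehydrogenase, lay between 0 and 0.0104 over 15 cytosines, and Got2, the mitochondrial aspartate aminotransferase, between 0 and 0.0385 over 4. Asns, asparagine synthetase, ranged from 0 to 0.259 over 3 cytosines. None of these 4 was called in that fit, in which 388 of 15301 promoters were.

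No single cytosine in the measured member promoters was called. Of the 651, 329 varied between libraries and were tested by limma with adjustment over the 508351 cytosines tested in the series, of which 0.615% were called. At an unadjusted p under 0.05 there were 12 of 329 (3.65%), against 12.1% of all cytosines tested. In 4 of 14 alternative fits 1 cytosine passed, which was that of Slc25a1 at 311 bases before the start in 2 of them, that of Dlst at 240 bases before it without control day 12, and 1 of Aldh5a1 at 305 bases after it without experimental day 20.

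The bodies of the same genes were methylated, and the member cytosines that passed the test for single cytosines lay in them. The body was taken as the gene outside its promoter window, again with 3 or more cytosines, after the promoters had been seen. The 29 members measured there had a median mean beta value of 0.726, against 0.665 over all 15767 gene bodies. In all 23 members with both measurements the body was above the promoter in each of the 12 libraries. The lowest bodies were Idh1 (0.133), Got2 (0.171) and Glul (0.287), and the highest Idh3a (0.972) and Dld (0.965). No member body was called, where 4.66% of all bodies were, and 2 had an unadjusted p under 0.05, where 20.5% of all did. The lowest adjusted p was that of Asns (0.569 ± 0.028 in the experimental and 0.449 ± 0.0795 in the control line, adjusted p = 0.0981 by limma). The Pcx body, with 104 cytosines, was the only one whose lines did not overlap, at 0.461 to 0.487 in the experimental and 0.428 to 0.456 in the control line (adjusted p = 0.328 by limma). Such a separation was seen in 4.43% of all bodies in this direction and in 1.92% in the other. On day 0, before doxycycline, the Pcx body was already higher in the experimental line, at 0.4785 against 0.428 in the control line.

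**Figure D5:**
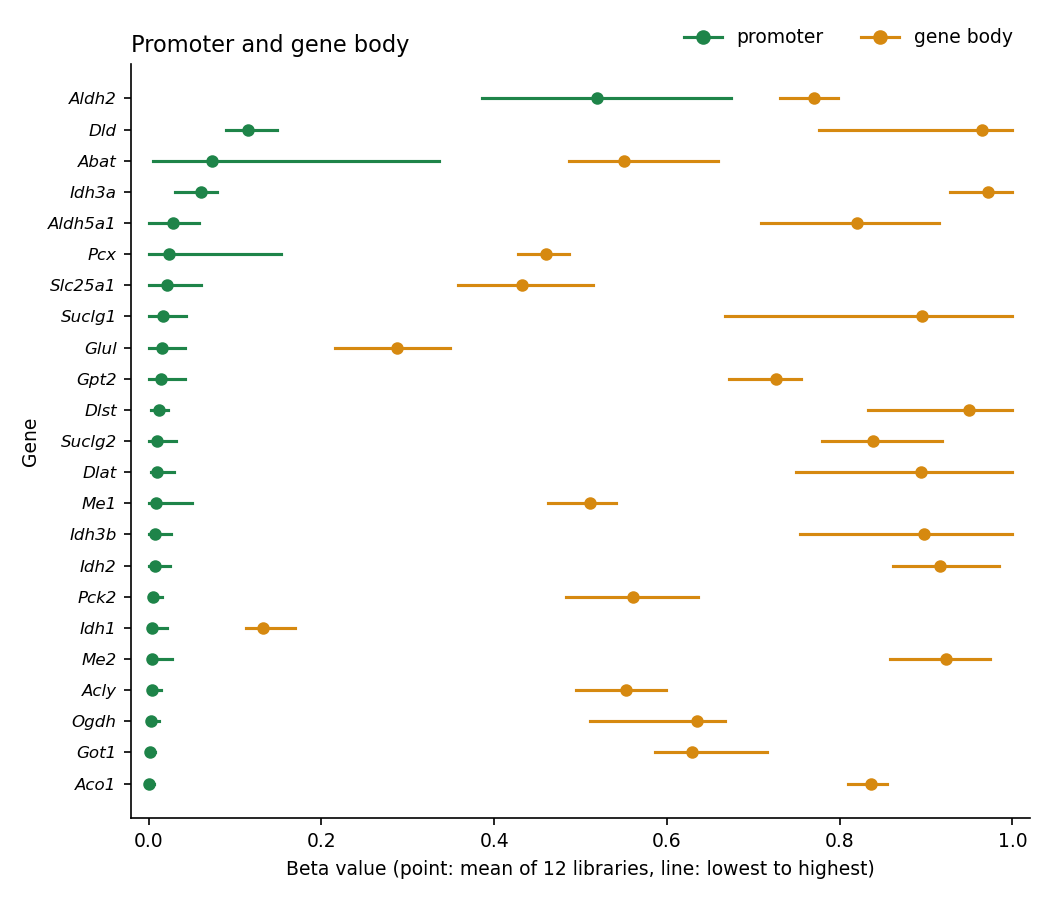
Beta value of promoter (green) and gene body (orange) for the 23 members with both, as the mean of 12 libraries (point) and the lowest to highest library (line). The promoters are near 0 apart from Aldh2 and a few others, and each body lies to the right of its promoter.

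Of 598 cytosines in member bodies, 539 were tested and 4 were called (0.742%, against 0.615% of all cytosines), each higher in the experimental line. A pair of them lay in Pcx, within 100 bases past the end of its promoter window. The Pcx cytosine at chr19:4511071, 599 bases after the start, had methylation levels of 0.0625, 0.667, 0.286, 0.429 and 0.647 in the experimental line on days 5 to 20 and 0.545 on day 0, and was at 0 in all 6 control libraries (adjusted p = 0.00838 by limma). The cytosine at chr19:4511065, 593 bases after the start, had 0.281, 0.667, 0.286, 0.481 and 0.353 on days 5 to 20 and 0.364 on day 0. In the control line it was at 0.0625 on day 5, 0.0286 on day 20 and 0 otherwise (adjusted p = 0.0103 by limma). The cytosine on the other strand of that CpG was at 0 to 0.368 in the experimental and 0 in the control line. Further in, 760 bases after the start, a Pcx cytosine had the opposite order, with means of 0.212 and 0.686 in the experimental and control lines (adjusted p = 0.282 by limma).

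The Got1 cytosine at chr19:43511330, 13275 bases after the start, was methylated at 0.973 or more in all 6 experimental libraries, day 0 included. In the control line it had 0.217, 0.421, 0.424, 0, 0.633 and 0.329 (adjusted p = 0.0203 by limma). The Aldh4a1 cytosine at chr4:139623715, 821 bases after the start, had 0.15, 0.304, 0.152, 0.227 and 0.31 in the experimental line on days 5 to 20 and 0.156 on day 0, against 0 to 0.105 in the control line (adjusted p = 0.0423 by limma). All 4 cytosines had differed between the lines on day 0 in the same direction, by 0.545 and 0.364 in Pcx, 0.783 in Got1 and 0.156 in Aldh4a1. The call of the cytosine at 593 bases in Pcx was kept in all 14 alternative fits, that of its neighbour at 599 bases in 13, that of Got1 in 12 and that of Aldh4a1 in 4. The Aldh4a1 call was lost in 10 of the 11 fits that left out 1 library.

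Other genes of the same pathways, a list of 50 with mitochondrial carriers, other subunits and amino acid enzymes, gave 40 measured promoters. None of the 40 was called (lowest adjusted p = 0.101 by limma), and 10 (25%) had an unadjusted p under 0.05, beside 18.0% of all promoters. The median mean beta value of the 40 promoters was 0.0205 and their median difference in M-value was 0.42.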

How the data were processed

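RRBS libraries of 2 iMEF lines on 6 days were used, 1 library each. Per the labels and methods, reads were paired-end and the authors used Bismark against mm10. The deposited value of each CpG cytosine is the percent of reads called methylated, without read counts, so depth is unknown. The filters of RnBeads were applied after this step and are not in these values. Each percent was divided by 100. Autosomal cytosines listed in all 12 libraries were averaged per promoter, and the cytosines of both strands were kept apart, including those with the same value in all libraries.

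Starts were the 5′-most RefSeq start on GRCm38.p6, the assembly of mm10. For genes without a listed promoter the gene end was used, with the strand by symbol from another build, of which no coordinate was used. These included 6 members (Abat, Aldh2, Gls2, Gpt, Idh3a and Me2), and the distances from the start given for them depend on that choice. limma 3.58.1 in R 4.3.3 compared 5 experimental libraries (days 5 to 20, as in the study) with 6 control libraries, and a second fit over all 12 tested the line by day term. The code was tested on simulated data. Libraries of 1 line at different days stand in for replicates, so p-values measure the spread between time points. The members, lists and tests were chosen with earlier results of these data known. Values in every library are given for members with an unadjusted p under 0.05 in either fit, the 6 with the largest difference and the 6 with the highest mean beta value, the 4 with the widest range, and Pcx and Aldh2. The genome of another build was not used.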

Additional observations from a re-analysis of the deposited data

Results flagged for a closer look

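In 2 of 32 groups of libraries tested for a single distant value, 1 library stood apart by Dixon's ratio. The groups came from the members given with values and from some gene bodies. Several of these members, Abat and Pcx among them, had been picked for their wide range or large difference. The usual rate of about 5 in 100 groups is therefore no measure of chance here. Both distant values were in control day 12, the library with the fewest cytosines listed. Its Abat promoter beta value was 0.336, against 0.039 to 0.11 in the other control libraries, and its Pcx promoter beta value was 0.154, against 0 to 0.00651 in the others. The part of library size in these values was not tested.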

How the results depend on the processing

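The number of promoters called (340) was 187 with an offset of 0.001, 36 with the median over cytosines, 203 with the narrower window (1000 bases before to 200 after the start), 548 with experimental day 0 kept, 8 with day as a replicate block, and 186 to 357 when 1 library was left out. Days were not taken to pair the lines: the same-day correlation of deviations was −0.035 to 0.0167 and no library correlated best with its own day. The 1 member promoter called, Slc25a1, became 0 with the offset of 0.001, limma on beta values, the median, the narrower window, the replicate block, the robust fit, the 11 libraries (added after seeing the data), and 0 to 1 when 1 library was left out (lost without experimental day 5, 9, 12 or 16 or control day 9, 16 or 20). Cytosines called (3124) were 5275 with an offset of 0.05, 5954 on beta values and 5793 with day 0 kept. Within member promoters the count of 0 became 1 with day 0 kept and 0 to 1 without 1 library. Gene bodies called (735, added after seeing the data) were 1130 with day 0 kept, 45 with the replicate block and 363 to 756 without 1 library. The Abat difference reversed to 0.55 with the median, and that of Pcx to −0.0693 with an offset of 0.05 and to −0.0136 on beta values. The line by day count stayed at 0, and the members under 0.1 were 19 at a threshold of 0.05 and 28 at 0.2. Unknown depth limits every single-cytosine value.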
